A study of Mus musculus with 27 samples.

Results

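Mouse medulloblastomas that had become resistant to NVP-LDE225 (LDE225) were compared with medulloblastomas that were still sensitive and had been exposed to the drug for 16 h or 48 h. LDE225 is an antagonist of Smo, the receptor-like protein that carries Hedgehog signals into the cell. Both sides had received the drug, so the comparison asks how the RNA of a resistant tumour under treatment differs from that of a tumour that is still responding. The 10 tumours were chosen by their titles, from 21 tumours with RNA arrays and 27 samples in all. The resistant side held 2 tumours on 20 mg/kg/day, called low-dose here, and 3 on 160 mg/kg/day, called high-dose. Both amounts were given in 2 daily doses, and these tumours were harvested on day 26 of treatment. Their labels also give a figure for continuous dosing without a unit, which was not used. The sensitive side held 3 tumours taken at 16 h and 2 taken at 48 h, on 20 mg/kg/day given in 1 daily dose. Values of 3 LDE225 tumours of 4 h and of 8 vehicle tumours (3 at 4 h, 3 at 16 h and 2 at 48 h) served as background. All tumours came from Ptch+/-p53-/- mice, were dissociated and grew as subcutaneous flank allografts in nude mice, which lack mature T cells. Every group thus lacked p53 and grew outside the cerebellum, and dosing began about 10 days after implantation. Resistance, day of harvest and dosing schedule went together in this design and cannot be told apart.

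In the Hedgehog pathway, Ptch1 normally holds Smo inactive, and its loss lets the Gli transcription factors drive the growth of granule neuron precursors of the cerebellum. A Smo antagonist acts downstream of Ptch1 and switches Gli target genes off. Resistance to such drugs is known to arise by changes in Smo itself, by changes further down the pathway and by the use of other growth signals. No table used here pairs the probe sets of this array with genes. Probe sets are therefore given by identifier, no RefSeq promoter could be matched to them, and the tumour identity could not be checked against marker genes. The exceptions are array control probe sets whose identifiers carry the name of a mouse gene.

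RNA was hybridised to 1 Affymetrix mouse expression array per tumour, and the deposited values are linear MAS5 signals. Array means lay between 222 and 256 in resistant tumours and between 224 and 246 in sensitive tumours. The 3′ beta-actin control signal divided by the 5′ one, a quotient that grows when RNA is shorter or labelling less complete, was 1.27 to 1.4 in resistant tumours, 1.26 to 1.33 in sensitive tumours of 48 h and 1.58 to 1.91 in sensitive tumours of 16 h. Resistant tumours thus overlapped with the 48 h arrays in this ratio and not with the 16 h arrays. The median signal of an array, in turn, was 24 to 30.4 in resistant tumours, 31.3 to 36.1 in sensitive tumours of 48 h and 27.1 to 28.3 in those of 16 h, so here the 48 h arrays stood apart. Several results are given against each time, and the others against both times together. In bulk tumour RNA, fewer cells of a type and less RNA per cell cannot be told apart.

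Resistant and sensitive tumours differed widely. Of the 45037 probe sets tested, 8231 (18.3%) passed (limma on log2(signal + 4), adjusted p under 0.05), of which 4130 (9.17%) were higher and 4101 (9.11%) lower in resistant tumours. With arrays centred on their median 4316 were higher and 2939 lower, and with the 10 arrays fitted as 2 groups of 5 2636 passed, 1693 higher and 943 lower. The median size of the called differences was 0.80 on the log2 scale, and 10% of them were larger than 1.61. Differences of at least 2-fold, found for 2834 probe sets (6.29%), were more often downward, with 1021 higher and 1813 lower. At 4-fold or more, 114 were higher and 273 lower. The excess of falls at 2-fold was smaller with arrays centred on their median, at 1311 higher and 1551 lower. The values of the 5 resistant and 5 sensitive tumours did not overlap at all for 3746 probe sets (8.32%), of which 2338 (5.19%) were higher and 1408 (3.13%) lower. Of the called probe sets, 2123 of the higher and 1202 of the lower ones had such separate values.

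**Figure D1:**
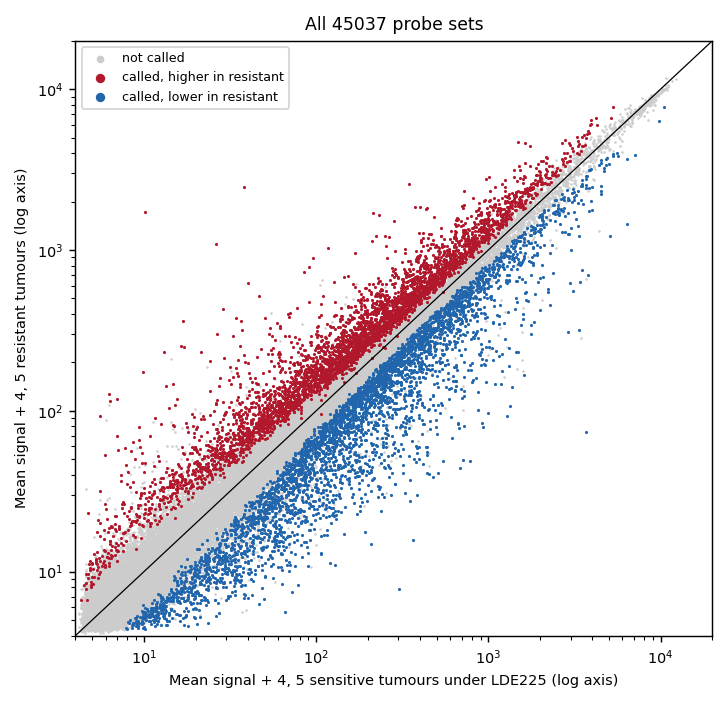
Mean signal plus 4 of each of the 45037 probe sets in the 5 resistant tumours (vertical) against the 5 sensitive tumours under LDE225 (horizontal), both on log axes, with called probe sets in red (4130 higher) and blue (4101 lower). The called probe sets form a band on both sides of the diagonal.

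The direction of the called differences went with the level of the transcript in vehicle tumours, whose values do not enter the difference itself. Among the 4646 probe sets with a mean vehicle signal above 500, 1206 (26%) were higher in resistant than in sensitive tumours and 489 (10.5%) were lower. Among the 9148 with a vehicle signal of 100 to 500, 1757 (19.2%) were higher and 1381 (15.1%) lower. The order was the other way round for the 10096 at 20 to 100, with 873 (8.65%) higher and 1317 (13%) lower, and for the 21147 under 20, with 294 (1.39%) higher and 914 (4.32%) lower. Among the called probe sets, those abundant in untreated tumours were thus more often higher and those scarce there more often lower in resistant tumours, while most probe sets of each class were not called. In the class above 500 the split was 1299 higher and 606 lower after quantile normalization and 1089 higher and 241 lower with arrays centred on their median, and in the class under 20 it was 368 and 685, and 376 and 705. The 2 middle classes were less settled. At 20 to 100 the split was nearly even under these settings, at 1156 higher and 1271 lower after quantile normalization and 1029 and 1078 with centring. At 100 to 500 the differences of at least 2-fold, 333 higher and 343 lower, did not share the order of the calls. The vehicle arrays took part in the estimate of the spread, and probe sets of 1 gene are not independent. The classes were not read against each time apart, so these orders hold for both times together. Over all probe sets, 1593 were called at least 2-fold higher and 3502 lower against 48 h alone. Against 16 h alone these counts were 1107 and 659.

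The largest rise among probe sets with separate values and a mean of at least 200 in the higher group was that of 1459725_s_at. Its signal was 434 and 1598 in low-dose resistant tumours and 7701, 2024 and 516 in high-dose ones, against 27.8, 34.1 and 23.2 in sensitive tumours of 16 h and 53.5 and 32.7 in those of 48 h. Every resistant tumour was at least several times above every sensitive one, and high-dose resistant tumour 1 was the highest of the 5. The log2 difference was 5.08 (standard error 0.47, limma, adjusted p = 5.28e-07). In vehicle tumours it ranged from 813 to 3554, so the resistant tumours lay below, within and above the vehicle range. The tumours taken 4 h after LDE225, at 1316, 1181 and 1343, had signals near the vehicle level, and the drop was seen in the 16 h and 48 h tumours.

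The other large rise, that of 1447456_x_at, had the same order of tumours on the resistant side. Its signal was 159.9 and 469 in low-dose and 3846, 794 and 192 in high-dose resistant tumours, against 31.4, 4.1 and 32.9 at 16 h and 26.6 and 16.2 at 48 h in sensitive tumours. The log2 difference was 4.38 (standard error 0.56, limma, adjusted p = 1.76e-05). High-dose tumour 1 was again the highest and low-dose tumour 1 the lowest resistant tumour, while vehicle tumours ranged from 271 to 1158. The endings _s_at and _x_at mark probe sets that may read more than 1 transcript, and whether these 2 read the same one is not given in the tables used here.

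The largest fall by the same rule was that of 1451499_at, a transcript at a low level everywhere but in the sensitive tumours. Its signal was 47.7 and 62 in low-dose and 28.1, 9.4 and 51.8 in high-dose resistant tumours, against 173, 127 and 165 at 16 h and 1486 and 1465 at 48 h in sensitive tumours. The sensitive tumours were all higher, and those of 48 h stood far above those of 16 h. The log2 difference was -3.56 (standard error 0.26, limma, adjusted p = 3.48e-08), the mean of -5.17 against 48 h and -1.94 against 16 h. Vehicle tumours ranged from 33.5 to 56.5, and the resistant tumours, apart from high-dose tumours 1 and 2 below that range and low-dose tumour 2 above it, lay within it.

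The next largest fall by that rule, 1419662_at, depended on the 48 h tumours. Its signal was 37.3 and 16.6 in low-dose and 50.1, 34 and 45 in high-dose resistant tumours, against 67.2, 238 and 60.8 at 16 h and 1164 and 719 at 48 h in sensitive tumours. The sides did not overlap, but the gap to the 16 h tumours was small. The log2 difference was -3.07 (standard error 0.79, limma, adjusted p = 0.00894), and against the 16 h tumours alone it was -1.49 and missed the threshold (limma, standard error 0.90, adjusted p = 0.353). Vehicle tumours were scattered for this probe set, from 4.9 to 424, and those at 204 and 424 were tumour 1 of 16 h and tumour 1 of 48 h.

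**Figure D2:**
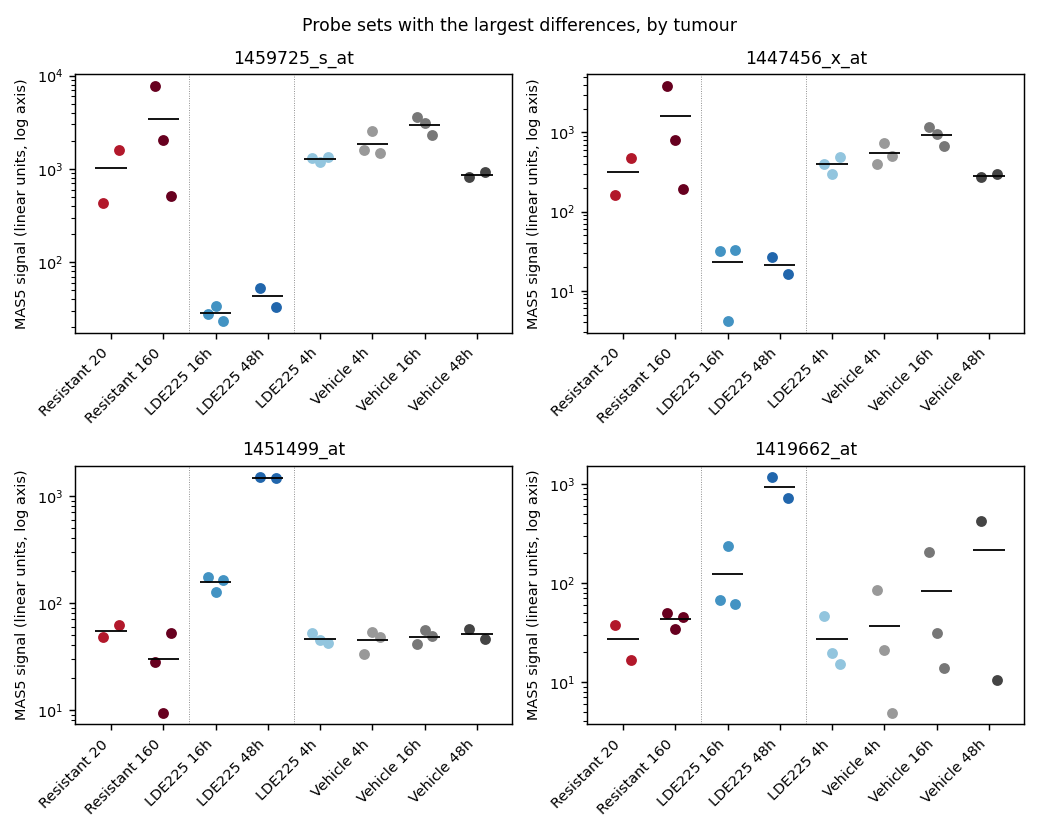
MAS5 signal on a log axis of the 4 probe sets with the largest rises and falls among those with separate values and a mean of at least 200 in the higher group, 1 point per tumour and a line at each group mean, with resistant tumours left, sensitive tumours of 16 h and 48 h next, and LDE225 4 h and vehicle tumours to the right. In the upper panels the sensitive tumours of 16 h and 48 h lie alone at the bottom, and in the lower panels those of 48 h lie alone at the top.

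Of the mouse genes that the control probe sets name, the transferrin receptor differed most. This receptor brings iron into the cell and is known for its high level in dividing cells. Its 3′ probe set had a signal of 123 and 158 in low-dose and 203, 314 and 218 in high-dose resistant tumours, against 32.9, 26.3 and 31.8 in sensitive tumours of 16 h and 32.3 and 41.6 in those of 48 h. All resistant tumours were above all sensitive ones, and the 3 high-dose ones were above the 2 low-dose ones. The mean was 203 ± 72.6 in resistant and 33 ± 5.5 in sensitive tumours (SD, n = 5 each), a log2 difference of 2.43 (exact two-sided permutation p = 0.00794, the smallest that 252 splits allow, adjusted 0.0377 over 19 mouse control probe sets). The 5′ and middle probe sets were dim, with means of 46.9 ± 20.3 and 48.1 ± 17 in resistant tumours against 9.58 ± 3.62 and 10.2 ± 3.75 in sensitive tumours (SD, n = 5 each). Both gave a log2 difference of 1.86 and the same exact p. Vehicle tumours had a 3′ signal of 43.3 to 134, with a median of 92.1, so all 5 sensitive tumours lay below the vehicle range. The resistant tumours exceeded them by 1.16 on the log2 scale (exact two-sided permutation p = 0.00233, adjusted 0.0221), with the resistant tumour at 123 inside the vehicle range. For the 5′ and middle probe sets, the log2 difference from vehicle tumours of 1.09 and 1.06 missed the threshold after adjustment (exact permutation, adjusted p = 0.0612 and 0.0591).

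Pyruvate carboxylase, the mitochondrial enzyme that makes oxaloacetate from pyruvate, was also higher on the resistant side. Its middle probe set MB had a signal of 162 and 88.3 in low-dose and 199, 117 and 130.4 in high-dose resistant tumours, against 48.7, 65.2 and 43.6 at 16 h and 32.8 and 87.1 at 48 h in sensitive tumours. The sides were separate, though the lowest resistant and the highest sensitive tumour nearly met. The log2 difference was 1.29 (exact two-sided permutation p = 0.00794, adjusted 0.0377). The other 3 probe sets of the gene had log2 differences of 0.63, 0.93 and 0.99 in the same direction, and did not pass after adjustment (exact permutation, adjusted p = 0.194, 0.0603 and 0.0754). The 3′ probe set was lower in resistant than in vehicle tumours, at 357 ± 91.1 (SD, n = 5) against 581 ± 71.8 (SD, n = 8), with a log2 difference of -0.72 (exact two-sided permutation p = 0.00155, adjusted 0.0221).

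The remaining control probe sets of mouse genes, for beta-actin, the glycolytic enzyme Gapdh, 18S ribosomal RNA and the B1 and B2 repeats, did not pass, with log2 differences between -0.25 and 0.55 (exact permutation, adjusted p of 0.256 or more). The B1 repeat, a short interspersed element found in many transcripts, was high in particular tumours. Its signal was 1232 and 1026 in low-dose and 969, 2224 and 1641 in high-dose resistant tumours, against 978, 1143 and 1048 at 16 h and 3239.5 and 2765 at 48 h in sensitive tumours. Both 48 h tumours thus stood above all resistant ones, and the 16 h tumours did not. The 3′ probe set of 18S ribosomal RNA had 269 in high-dose resistant tumour 3, against 82.7 to 120 in the other resistant tumours and 60.4 to 97 in the sensitive tumours.

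**Figure D3:**
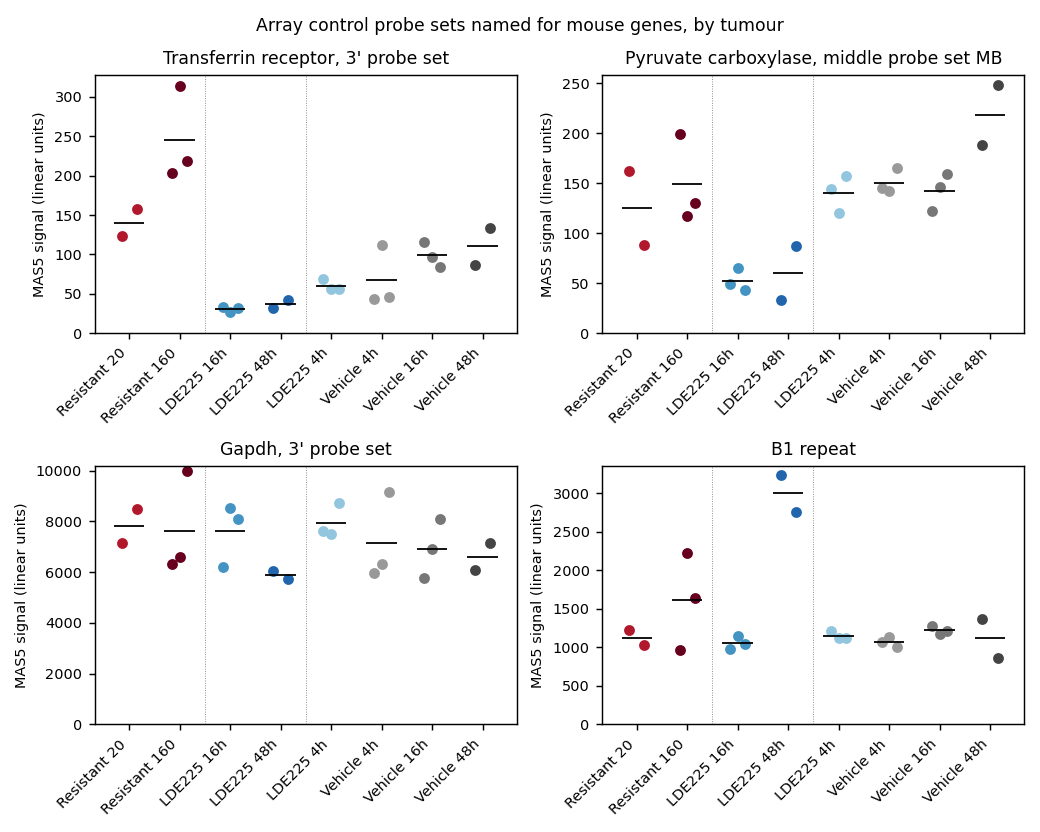
MAS5 signal on a linear axis from 0 for 4 array control probe sets, 1 point per tumour and a line at each group mean, with resistant tumours left. The transferrin receptor has its highest values in resistant tumours (mean 203), of which 1 lies below the highest vehicle tumour (134), and is lowest in sensitive tumours of 16 h and 48 h (mean 33), Gapdh shows no such separation, and the B1 repeat is highest in the 48 h tumours.

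Each dose of the resistant side was set against the same 5 sensitive tumours. At the high dose, 8169 probe sets (18.1%) differed, 3854 (8.56%) higher and 4315 (9.58%) lower (limma, adjusted p under 0.05). With each array centred on its median that split was 4405 higher and 2818 lower, since the centring moved the median difference of all probe sets from -0.06 to 0.07. At the low dose, where both sides received the same daily amount of drug, 3784 (8.4%) differed, 2220 (4.93%) higher and 1564 (3.47%) lower. This count was 1497 without low-dose tumour 1 and 1346 without low-dose tumour 2, and 2507 without sensitive tumour 1 of 48 h. For the 4 probe sets above, both doses had to lie on 1 side of the sensitive tumours, since separate values were a condition of the choice. The log2 difference from sensitive tumours was 4.45 at the low and 5.71 at the high dose for 1459725_s_at, and 3.58 and 5.18 for 1447456_x_at. It was -3.05 at the low and -4.06 at the high dose for 1451499_at, and -3.40 and -2.73 for 1419662_at, and none of these 4 passed the direct test between doses (limma, adjusted p of 0.28 or more). Over all probe sets the direct test of high against low dose called 190 (0.422%), 23 (0.0511%) higher and 167 (0.371%) lower at the high dose. The counts of 8169 and 3784 came from 3 and 2 resistant tumours. They were 5949 and 5142 with each array weighted by its estimated precision, so their sizes do not rank the doses.

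The counts also depended on the time at which the sensitive tumours were taken. Against the 48 h tumours alone 9528 probe sets (21.2%) differed, with 4584 (10.2%) higher and 4944 (11%) lower in resistant tumours. Against the 16 h tumours alone 4862 (10.8%) differed, with 2638 (5.86%) higher and 2224 (4.94%) lower. The sensitive tumours of 48 h themselves differed from those of 16 h in 6479 probe sets (14.4%), with 3380 (7.5%) higher and 3099 (6.88%) lower at 48 h. At 4-fold or more, 181 were higher and 1344 lower against 48 h, and 125 higher and 38 lower against 16 h. The excess of large falls in the whole comparison was thus seen against the 48 h tumours and not against the 16 h tumours. The actin ratio set the 16 h tumours apart from the other groups and the median signal, at 31.3 or more, set the 48 h tumours apart, and their part in these counts was not tested.

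Whether a difference seen at one dose recurred at the other was read on separate arrays, with no tumour in common. The probe sets at least 2-fold higher in low-dose resistant tumours than in sensitive tumours of 48 h numbered 1507. Of these, 551 (36.6%) were also called higher in high-dose resistant tumours against sensitive tumours of 16 h, where 6.19% of all probe sets were. Called lower there were 74 (4.91%), where 6.43% of all were. The median log2 difference of the 1507 there was 0.42, against -0.03 for all probe sets. Of the 2566 that were at least 2-fold lower, 324 (12.6%) were called lower, where 6.43% of all were, with a median of -0.34. That share was 8.16% without sensitive tumour 3 of 16 h, a setting for which the share of all probe sets was not computed. In the reverse reading, 1334 probe sets were at least 2-fold higher at the high dose against 16 h. Of these 463 (34.7%) were called higher at the low dose against 48 h, where 7.66% of all were. Of the 1132 that were lower, 262 (23.1%) were called lower, where 7.35% of all were. The list of 2566 was 1231 and 1488 long without sensitive tumours 1 and 2 of 48 h, and 1422 and 1585 without low-dose tumours 1 and 2.

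The other way of keeping the arrays apart sets the low dose against 16 h and the high dose against 48 h, again with a shared estimate of spread. Of 759 probe sets at least 2-fold higher at the low dose, 376 (49.5%) were called higher at the high dose, where 9.13% of all were, and of 346 lower ones 143 (41.3%) were called lower, where 10.6% of all were. Of 1699 higher at the high dose, 503 (29.6%) were called higher at the low dose, where 3.02% of all were. Of 3550 lower at the high dose against 48 h, 158 (4.45%) were called lower at the low dose against 16 h, where 1.64% of all were. Called higher were 98 (2.76%), where 3.02% of all were. For this list few members were called in either direction, and its median log2 difference was -0.17, against 0.02 for all probe sets.

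The tumours carried the lists of the first reading to different extents. Of the 1507 probe sets higher at the low dose, 28.9%, 23.8% and 22.9% were at least 2-fold above the 16 h mean in high-dose resistant tumours 1, 2 and 3, against 5.84%, 8.88% and 8.24% of all probe sets. Of the 2566 lower ones, 13.3%, 14.5% and 32.8% were at least 2-fold below, against 4.98%, 6.29% and 10.6% of all. Tumour 3 stood out on the lower side, both for the list and for all probe sets. For the lists of the high dose read in low-dose resistant tumours 1 and 2, 38.1% and 26.3% of the higher ones were at least 2-fold above the 48 h mean, against 7.32% and 7.15% of all. The lower ones reached 24.7% and 23.1%, against 12.6% and 12.9% of all.

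**Figure D4:**
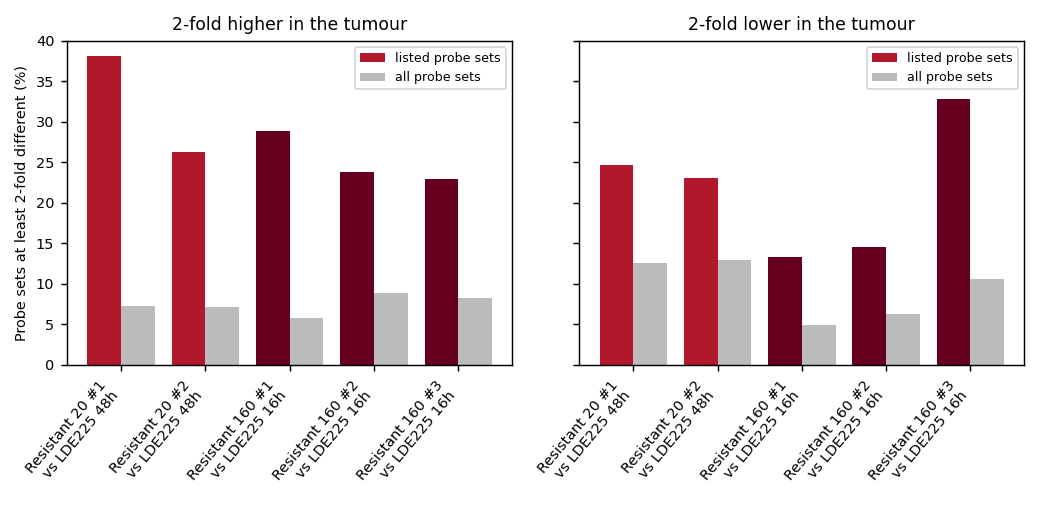
Share of probe sets at least 2-fold higher (left) or lower (right) in each resistant tumour than in sensitive tumours of 1 time, for probe sets listed from the other dose and the other time (dark bars) and for all probe sets (grey bars). Listed probe sets exceed all probe sets in each of the 5 tumours, and high-dose tumour 3 has the tallest bar on the lower side (32.8%).

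Probe sets that answered the drug early were followed next, chosen on the 4 h arrays, which are not part of the comparison. The choice and the comparison did share the estimate of spread, which can raise the shares called in both. At 4 h, 29 probe sets (0.0644%) had responded: 27 (0.06%) were lower and 2 (0.00444%) higher in LDE225 than in vehicle tumours (limma, adjusted p under 0.05). Of the 27, 24 (88.9%) were called higher in resistant than in sensitive tumours, where 9.17% of all probe sets were. Only 1 was called lower, where 9.11% of all were. The median log2 difference of the 27 was 1.53, with a range of -0.84 to 3.08, against -0.03 for all probe sets. At the low dose 20 of the 27 (74.1%) were higher, where 4.93% of all were, and at the high dose 24 were, where 8.56% of all were. Against vehicle tumours of 16 h and 48 h, which share no array with the choice, 0 of the 27 were called higher and 2 lower in resistant tumours, where 2.19% and 1.49% of all were. Their median was -0.22, against 0.06 for all probe sets, and 7 of the 27 had a positive difference. At such shares few of 27 would be called, so the lack of calls does not show a full return to the vehicle level. Without a mean-variance trend in the model, 2 probe sets in place of 27 were lower at 4 h, and 50% of those were higher in resistant tumours.

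Relative to vehicle tumours of 4 h, the median log2 level of the 27 was -0.21 and -0.84 in low-dose resistant tumours 1 and 2 and 0.08, -0.41 and -0.72 in high-dose resistant tumours 1, 2 and 3. It was -1.51, -1.64 and -1.82 in sensitive tumours of 16 h and -2.78 and -2.67 in those of 48 h. The vehicle tumours of 4 h took part in choosing the 27, which can place their level too high, so distances from them are not read. The resistant tumours did not overlap with the sensitive ones, and low-dose tumour 2 was closest to them.

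The later answer to the drug was chosen on the 48 h arrays and read on the resistant, 16 h and earlier vehicle arrays. Here too the estimate of spread was shared, which can raise the shares called in both. At 48 h, 1445 probe sets had fallen and 2874 had risen at least 2-fold (limma, adjusted p under 0.05), out of 7009 called (15.6%). Of the 1445, 687 (47.5%) were higher in resistant tumours than in sensitive tumours of 16 h, where 5.86% of all probe sets were. The sensitive tumours of 16 h had 692 of them (47.9%) below vehicle of 16 h, where 4.37% of all were. In resistant tumours, 296 (20.5%) were below vehicle tumours of 4 h and 16 h, where 4.17% of all were. Above them were 122 (8.44%), where 6.25% of all were. These sizes depended on scaling: with arrays centred on their median, 4029 probe sets had fallen and 1735 had risen at 48 h. Of those fallen, 23.3% were higher in resistant tumours than in sensitive tumours of 16 h. The share of all probe sets was not computed for this scaling. The 2874 risen probe sets were 1785 without tumour 1 and 1541 without tumour 2 of LDE225 48 h.

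The probe sets that had risen are given in the same way. Of the 2874, 251 (8.73%) were lower in resistant tumours than in sensitive tumours of 16 h, where 4.94% of all were. In that reading 105 (3.65%) were higher, where 5.86% of all were. Against vehicle tumours of 4 h and 16 h, 601 (20.9%) were higher in resistant tumours, where 6.25% of all were. The lower ones numbered 25 (0.87%), where 4.17% of all were. In sensitive tumours of 16 h, 499 (17.4%) were above vehicle of 16 h, where 4.94% of all were. At the high dose 417 (14.5%) of the 2874 were lower than in sensitive tumours of 16 h, where 6.43% of all were, and at the low dose 69 (2.4%) were, where 1.64% of all were. The difference between these shares was not tested. For the refits with 1 tumour left out that follow, the share of all probe sets was not computed. Their values are therefore not set against the shares of all given above. The share of 8.73% was 5.67%, 5.81% and 4.75% without sensitive tumours 1, 2 and 3 of 16 h and 5.74% without low-dose resistant tumour 1. The share of 20.9% was 12.5% without low-dose resistant tumour 2.

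By tumour, the median log2 level of the 1445 fallen probe sets, relative to vehicle of 4 h and 16 h, was -0.11 and -0.28 in low-dose resistant tumours and 0.01, -0.15 and -0.08 in the high-dose ones. It was -0.55, -0.62 and -0.63 in sensitive tumours of 16 h, below every resistant tumour. That of the 2874 risen probe sets was 0.46 and 0.70 in low-dose resistant tumours and 0.22, 0.35 and 0.00 in the high-dose ones, against 0.51, 0.58 and 0.51 in sensitive tumours of 16 h. The low-dose resistant tumours thus lay on both sides of the sensitive ones for the risen set, and the high-dose ones lay below them.

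**Figure D5:**
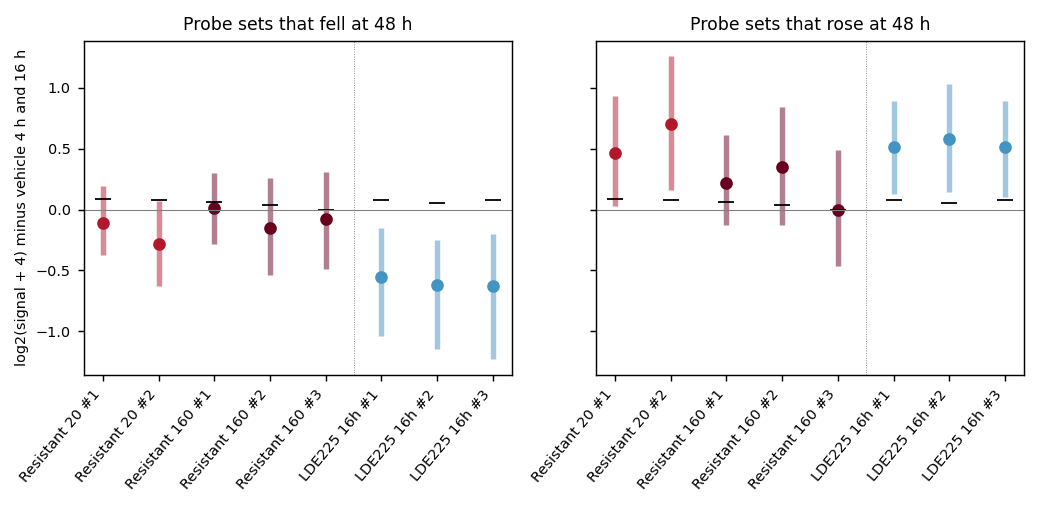
Level of probe sets that fell (1445, left) or rose (2874, right) at least 2-fold at 48 h of LDE225, as log2(signal + 4) minus the mean of vehicle tumours of 4 h and 16 h, with the median (points), the middle of the distribution between the quartiles (bars) and the median of all probe sets (dashes) in each resistant tumour and each sensitive tumour of 16 h. For the fallen set all 5 resistant tumours lie above the 3 sensitive ones, and for the risen set the low-dose ones lie on both sides of them and the high-dose ones below.

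Seen from the comparison, the probe sets higher in resistant tumours than at 16 h had fallen at 48 h more often than all probe sets. Of the 2638 higher ones, 1161 (44%) had fallen at 48 h, where 7.41% of all had, which is 34.8% of the 3336 that fell, and 126 (4.78%) had risen, where 8.16% of all had. The other 1351 (51.2%) were not called at 48 h, where 84.4% of all were not. Of the 2224 lower ones, 423 (19%) had risen at 48 h, where 8.16% of all had, which is 11.5% of the 3673 that rose. Of the same 2224, 156 (7.01%) had fallen, where 7.41% of all had, and 1645 (74%) were not called at 48 h, where 84.4% of all were not. These lists share no array, but they share the estimate of spread, which can raise the shares called in both.

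Some single tumours also had probe sets with a signal far above that of every other array. A probe set was counted for a tumour when its signal was at least 200 and at least 4-fold above that of each of the other 20 arrays, with 4 added to both. High-dose resistant tumour 2 had 51 such probe sets. The other resistant tumours had 0 and 2 at the low dose and 5 and 0 at the high dose, against 0 in each sensitive tumour of 16 h and 2 and 1 in those of 48 h. The 11 vehicle and 4 h tumours had 0 each. With 2-fold in place of 4-fold, the same tumour had 145, against 0 and 54 in the low-dose tumours, 17 and 5 in the other high-dose tumours and 19 and 46 in the sensitive tumours of 48 h, so it stood less apart at that limit. The 51 had a median signal of 378 in that tumour and a median of 63.8 in the next highest array.

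The high-dose resistant tumours were also the most variable among the groups of 3 tumours. The median within-group SD over all probe sets, on the log2 scale, was 0.375 in them. It was 0.25 in sensitive tumours of 16 h, 0.277 and 0.287 in vehicle tumours of 4 h and 16 h and 0.286 in LDE225 tumours of 4 h. The groups of 2 had 0.211 (low-dose resistant), 0.2 (sensitive of 48 h) and 0.206 (vehicle of 48 h). This median tends to be lower with 2 tumours than with 3, so groups of unequal size are not compared. Of the 4130 probe sets called higher, high-dose tumour 3 had the highest signal of the 5 for 1228 (29.7%), tumour 1 for 1065 (25.8%) and tumour 2 for 873 (21.1%), and the low-dose tumours for 429 (10.4%) and 535 (13%). Of the 4101 called lower, high-dose tumour 3 had the lowest signal for 1620 (39.5%), against 433 (10.6%) to 870 (21.2%) for each of the other 4. Such counts were not made over all probe sets. Of all probe sets, 10.6% were at least 2-fold below the 16 h mean in high-dose tumour 3. This share was 4.98% and 6.29% in high-dose tumours 1 and 2 and 4.16% and 5.45% in low-dose tumours 1 and 2. High-dose tumour 3 also had the highest 3′ signal of 18S ribosomal RNA among the 10 tumours, and the part of that in the counts of highest and lowest signals was not tested. Without it the count of called probe sets was 8116.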

How the data were processed

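The authors deposited linear intensity values per probe set, which per the submitters' processing notes came from MAS5; its version and scaling are not given in the sources used here. Of 45101 probe sets, 64 controls were left out of the model. Tests used limma 3.58.1 in R 4.3.3 on log2(signal + 4), the offset understating changes of dim probe sets, in 1 model with 8 group means over 21 arrays, 13 residual degrees of freedom and a mean-variance trend. The comparison is the mean of both resistant groups minus the mean of both sensitive groups. Tests are two-sided and Benjamini-Hochberg adjusted over all 45037 probe sets, with a threshold of 0.05. The labels number the mice within each group, and equal numbers in different groups were taken as different animals. Control probe sets named for mouse genes were tested by exact permutation. The number of arrays limits the precision.

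Members and lists were chosen with earlier results of these data known. Probe sets were named by size of difference among 1888 that passed, did not overlap and reached a mean of 200, 2 in each direction. Gene-based names and the gene and marker lists of the design were not used, because no table pairs probe sets with genes. DNA arrays were not used. No 2 arrays were identical (highest correlation 0.979). The alternatives tried are given at the end.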

Additional observations from a re-analysis of the deposited data

Results flagged for a closer look

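High-dose resistant tumour 2 stood apart from the other resistant tumours in its count of 51 probe sets at least 4-fold above every other array. At 2-fold in place of 4-fold it had 145 and the next resistant tumour 54. Of 50 sets of 5 values examined, the 4-fold counts were the only one that held such a far value, and chance alone flags about 1 in 20. The difference of resistant from sensitive tumours differed between doses for 190 probe sets in the direct test of 160 against 20 mg/kg/day, 23 higher and 167 lower (limma, adjusted p under 0.05). The difference of resistant tumours from sensitive tumours of 48 h and that from those of 16 h were unequal for 6479 probe sets, which is the direct test between the sensitive tumours of 48 h and 16 h. Among these was 1451499_at, higher at 48 h than at 16 h with a log2 value of 3.23 for that difference and a standard error of 0.37 (limma, adjusted p = 1.48e-05).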

How the results depend on the processing

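The count of 8231 for resistant against sensitive tumours was 2636 when the 10 arrays were fitted as 2 groups of 5, without dose and time, 4862 against 16 h alone, and between 6478 and 9528 under the other settings. It ranged from 5871 to 8518 with 1 tumour left out. The count of 3784 for 20 mg/kg/day was 2254 with the 10 arrays alone, 6762 against 48 h and 2100 against 16 h, and ranged from 1346 to 4608 with 1 tumour left out. That of 8169 for 160 mg/kg/day lay between 5685 and 8953, and between 6212 and 8370 with 1 tumour left out. With mouse number as a replicate block the 3 counts were 8152, 3991 and 7907. Tumours with the same number in different groups were taken as different mice, which the labels do not state. The correlation of their deviations averaged 0.0142, and 8 of 21 arrays were closest to one of their own number. Tumours were not taken as paired. Of the 4 probe sets, all kept their direction and call under 25 alternatives each, except 1419662_at against 16 h alone. These 4 were chosen for large differences and separate values on the same arrays, which favours such stability. For the transferrin receptor 3′ probe set the log2 difference lay between 1.81 and 2.59 under 16 alternatives (exact permutation p of 0.0476 or less, unadjusted). Alternatives for control probe sets, shares of lists, levels in vehicle tumours and left-out vehicle tumours were chosen after seeing the data. The alternatives planned for gene lists were not run, as no probe set could be named.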
